A study of Mus musculus with 9 samples.

Results

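The nuclear genes that encode subunits of the mitochondrial respiratory chain and of ATP synthase were followed in mouse embryonic fibroblasts (MEFs) sorted for low or high MYC. Members were the protein-coding genes whose names start with Nduf and a subunit letter and number (complex I), are Sdha to Sdhd (complex II), or start with Uqcr (complex III), Cox4 to Cox8 (complex IV) or Atp5 (complex V). This rule used names only and found 80 of the 19769 genes in the expression table, namely 36, 4, 8, 15 and 17 genes for complexes I to V. Ndufa4, which is now known as a complex IV protein, was kept in complex I by its name, and Ndufab1, Cyc1 and Cycs were not matched by the rule. The RNA came from primary MEFs homozygous for a fusion of Myc with Egfp at the endogenous locus, so that GFP reported MYC in both groups. Both groups received the proteasome inhibitor MG-132 at 20 µM over 6 h, were then sorted by GFP and were seeded overnight before RNA extraction. Each group was sequenced as 2 technical replicates, so every p-value below measures the spread between libraries and not between independent cultures. The other samples are a FUBP1 ChIP-seq of MEFs and TACh-seq, an assay of chromatin open to nuclease, of wild-type (WT) MEFs and of MEFs with Fubp1 knockout and siRNA knockdown of Fubp2 (KOKD). They were used only for positions near member genes.

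Respiratory complexes I, III and IV pass electrons from NADH through ubiquinone and cytochrome c to oxygen and pump protons across the inner mitochondrial membrane, and complex II feeds electrons in from succinate. Complex V lets the protons flow back and makes ATP. Complexes I, III, IV and V join subunits from nuclear genes with subunits from the mitochondrial genome, whereas complex II is wholly nuclear. The nuclear respiratory factor NRF1, the ETS-family factor GABP and YY1 are known regulators of these genes, and MYC with its partner MAX binds the E-box.

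The promoters of 66 of the 80 genes were found in RefSeq (mouse build GRCm38.p6), as windows of 250 bases before and 50 bases after the start. The letters of 4 patterns were searched on both strands, and none of the 4 contains another. The NRF1 pattern, GCGC and TGCGC with 1 base of any kind between them, was present in 17 of the 66 windows (25.8%), against 12.7% of 8175 protein-coding genes tested for expression and 5.19% of all 27025 genes in the promoter table. CCGGAAG (ETS) was present in 17 (25.8%), against 22.4% and 9.93%. AAGATGGC (YY1) was present in 10 (15.2%), against 5.81% and 3.19%; it lay wholly before the start in 1 of the 10. CACGTG, the E-box, was present in 6 (9.09%), against 12.2% and 8.09%. Matches are descriptions of letters and not of binding. Windows of 30 bases from 7 promoters are shown, chosen to cover complexes I to V and to lie before the annotated gene where GENCODE M21 places no gene; capitals mark the matched pattern, read 5′ to 3′ on the strand of the gene. In the NRF1 windows and in that of Sdhd the match is to the reverse complement of the pattern.
Ndufs5 (complex I, NRF1, chr4:123718265-123718294, minus strand): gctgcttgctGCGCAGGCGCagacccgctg
Cox6a1 (complex IV, NRF1, chr5:115349056-115349085, minus strand): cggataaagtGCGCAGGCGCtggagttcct
Atp5h (complex V, NRF1, chr11:115420041-115420070, minus strand): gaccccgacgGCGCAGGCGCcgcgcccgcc
Sdhd (complex II, ETS, chr9:50603877-50603906, minus strand): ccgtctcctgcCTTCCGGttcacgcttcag
Uqcr11 (complex III, ETS, chr10:80406869-80406898, minus strand): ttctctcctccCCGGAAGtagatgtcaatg
Ndufv1 (complex I, E-box, chr19:4012907-4012936, minus strand): agcagagggcgaCACGTGagcctggtttac
Atp5g3 (complex V, E-box, chr2:73911547-73911576, minus strand): acccctgcctggCACGTGcaaggagcgagg

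The values are fragments per kilobase (FPK) divided by a score from synthetic ERCC transcripts, which had been added in proportion to cell number. A level is therefore a relative amount per cell. Multiplied by the length of the gene from start to end, introns included, the values became whole multiples of 1 step per library, within 0.02 reads, for 67.1% to 67.9% of genes below 1000 reads. With exon lengths no step gave more than 16.0% whole values among genes with up to 30 reads, against 68.0% to 69.4% with the gene span. The deposited values were thus per kilobase of gene span, and levels of different genes are given below per kilobase of exon, computed from the exons of GENCODE M21. The steps put the libraries at 87683524 to 96332034 reads, and 1 read was worth 2.24 and 2.54 times as much in the high-MYC libraries as in low-MYC replicate 1.

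Myc mRNA on the deposited scale was 9.81 and 9.86 normalized FPK in the low-MYC libraries and 20.3 and 20.5 in the high-MYC libraries. Its log2 fold change of 1.04 ± 0.039 (SE) compares with a median of 1.03 over all genes tested, and of 1.19 on recovered reads, where no constant is added to low values. Relative to the median gene Myc was at -0.13 ± 0.037 (adjusted p = 0.105, limma), and at -0.14 on reads (adjusted p = 0.0133). The 10 fibroblast markers summed to 334 and 339 normalized FPK in low-MYC and to 802 and 818 in high-MYC libraries, all 10 were called higher and 3 also relative to the median gene (the second comparison below). Vim, the intermediate filament of mesenchymal cells, had at least 283411 reads in every library. The 15 macrophage markers summed to 0.631 and 0.881 in low-MYC and to 28.4 and 29.9 in high-MYC libraries. Of them, 10 passed the filter, a mean of at least 0.1 normalized FPK over the libraries. All 10 were called higher, also relative to the median gene, as were 97.1% and 1.76% of all genes tested. A gene under 0.1 in both low-MYC libraries could pass only by being higher in high-MYC cells. For such genes, Tyrobp and C1qa among them, the count does not test the direction. Cd68 was above 0.1 in every library, at 0.549 and 0.661 in low-MYC and 4.27 and 4.72 in high-MYC libraries. Tyrobp and C1qa had 0 reads in low-MYC replicate 1 and at most 3 in low-MYC replicate 2. The part of these cells in the results below was not tested, and in bulk RNA a change in the number of cells of a type and a change in RNA per cell cannot be told apart.

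The most abundant transcripts came from the F1 head of ATP synthase and from complex IV. Atp5b, the catalytic β subunit of ATP synthase, stood at 106 and 111 normalized FPK per kilobase of exon in the low-MYC libraries and at 233 and 250 in the high-MYC libraries. Cox6b1, a complex IV subunit that faces the intermembrane space, followed at 94.7, 98.7, 204 and 220 in the same order of libraries. Atp5a1, the α subunit, was at 70.5, 72.9, 159 and 169. These levels did not overlap between groups, as in 99.0% of all genes tested. The order of the 3 genes was the same in each library.

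Next came the common complex IV subunits Cox8a (57.8, 61.7, 129 and 138), Cox4i1 (57.8, 57.8, 130 and 131) and Cox6a1 (54.3, 54.8, 120 and 125). Cox8a and Cox4i1 could not be ordered, since their libraries overlapped. In complex III the highest was Uqcrh, the hinge protein that contacts cytochrome c1, at 40.4, 42.3, 91.9 and 98.8. In complex I the highest mean was that of Ndufa4, at 38.8, 40.1, 86.8 and 93.4. Ndufa2, a supernumerary subunit, followed at 35.9, 37.5, 87.5 and 82.8 and exceeded Ndufa4 in high-MYC replicate 1, so the order of this pair was not fixed. In complex II it was Sdhd, a membrane anchor, at 33.2, 35.3, 75.9 and 80.4.

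The tested gene with the fewest reads was Cox6b2, an isoform known from testis, at 302, 269, 414 and 340 reads. Other tested genes had up to 102090 reads per library on average, for Atp5b, with a median over all tested genes of 6032. Of the 80 genes, 77 passed the filter of a mean of at least 0.1 normalized FPK. The 3 that did not were Cox4i2, Cox6a2 and Cox7a1, isoforms known from lung or from heart and skeletal muscle. A long union of exons lowers the level per kilobase: Ndufb2, at 1.58, 1.75, 3.50 and 4.09, had the lowest level in complex I with 2019 to 2255 reads.

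**Figure D1:**
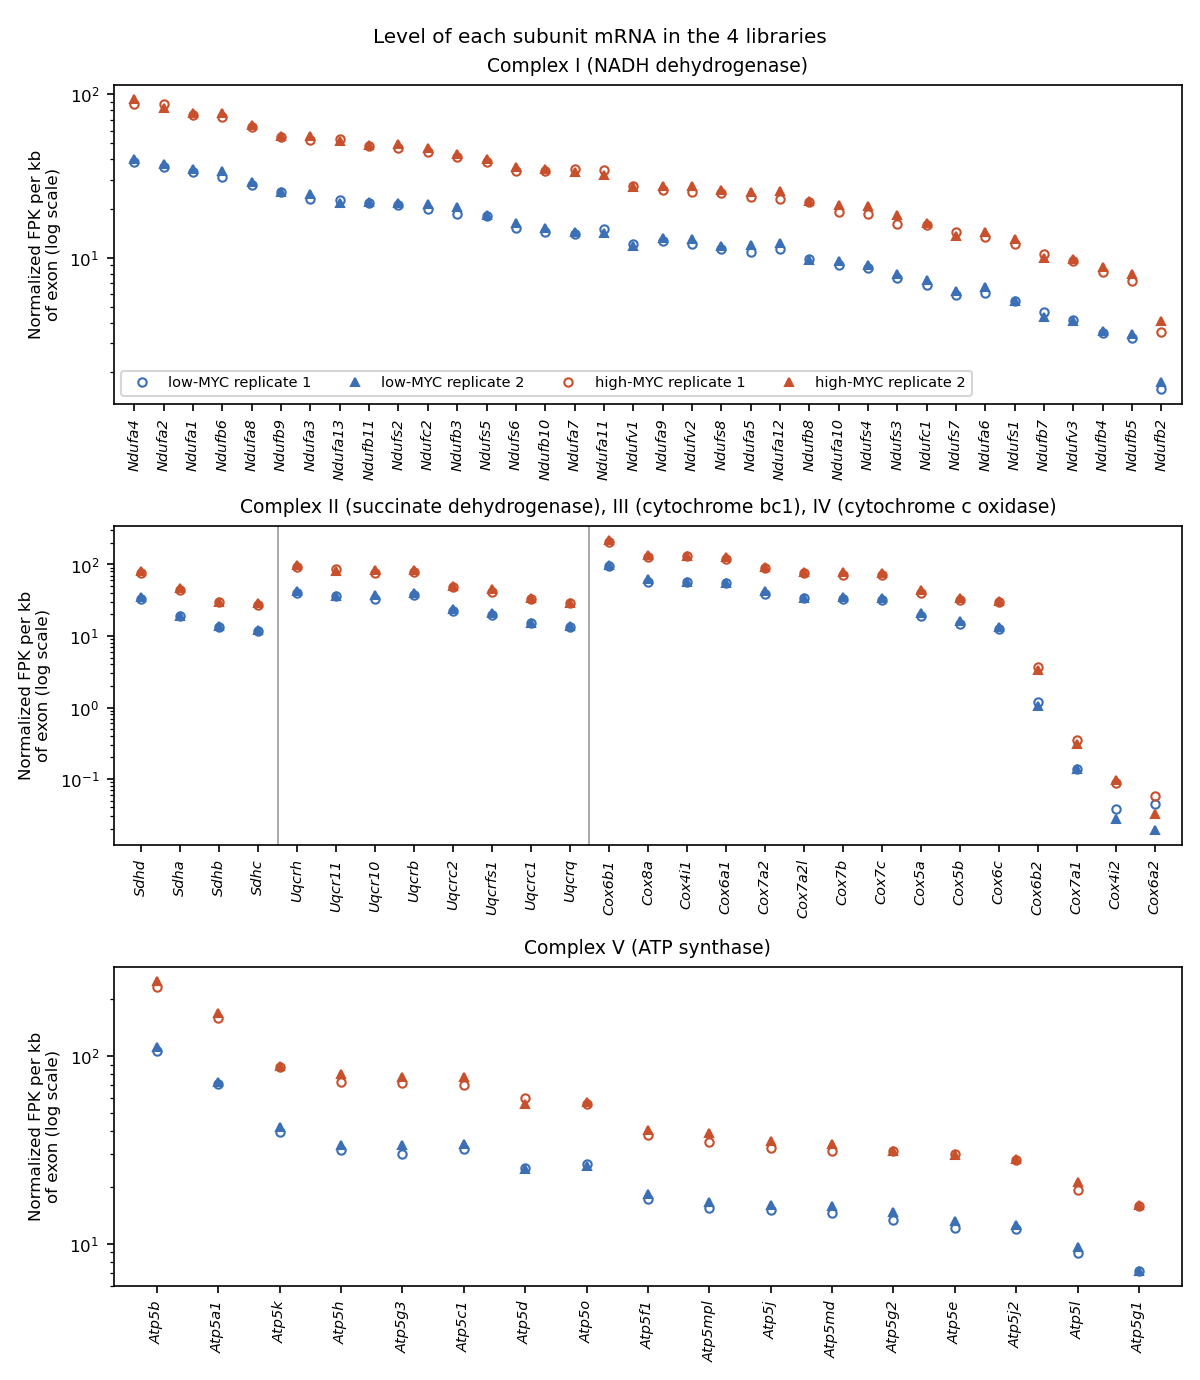
Normalized FPK per kilobase of exon (log scale) of each of the 80 subunit genes in the low-MYC (blue) and high-MYC (red) libraries, with replicate 1 as open circles and replicate 2 as triangles. The red symbols lie above the blue ones for all 77 tested genes, and Cox7a1, Cox4i2 and Cox6a2, which were not tested, lie lowest, at 0.347 or less in every library.

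The shares of the complexes in the total differed little between groups. Summed over the 80 genes, the level per kilobase of exon was 1765 and 1846 in the low-MYC libraries and 3952 and 4135 in the high-MYC libraries. Complex I held 30.6% ± 0.13 (SD, n = 2) of this sum in the low-MYC group and 30.7% ± 0.31 in the high-MYC group. Complex V held 27.1% ± 0.12 and 27.2% ± 0.16, which differed by less than the replicates. The share of complex IV was 25.5% ± 0.052 against 25.3% ± 0.12. Complex III was at 12.4% and 12.5% against 12.2% and 12.3%, and complex II at 4.35% and 4.36% against 4.49% and 4.52%. For complexes IV, III and II the groups did not overlap, with mean differences of -0.146, -0.162 and 0.145 percentage points. On the deposited scale, per kilobase of span, these differences were -0.116, -0.205 and 0.0757, again without overlap. An exact permutation test of 2 against 2 libraries cannot go below p = 0.333, so none was run. As a share of all reads the 80 genes took 0.756% and 0.765% in low-MYC and 0.754% and 0.748% in high-MYC libraries.

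The first comparison asked how the amount of each transcript per cell differed between high-MYC and low-MYC MEFs. All 77 tested genes were higher in high-MYC cells at an adjusted p under 0.01 (limma, Benjamini-Hochberg adjustment over 11870 genes), and none was lower, nor at an unadjusted p under 0.05. The background was of the same kind, as 97.1% of all genes tested were called higher and 0.0253% lower. Adjusted p-values of the 77 ranged from 1.04e-05 to 6.65e-05. With a fold change of at least 2 required, 73 of 77 were called, against 55.1% of all genes tested. Among genes with a mean of at least 1000 reads, 72 of 76 subunit genes and 5413 of 8484 genes tested were called so. The median log2 fold change of the 77 was 1.15 (quartiles 1.10 and 1.18), and that of all genes tested was 1.03 (0.87 and 1.15). This order depended on the constant of 0.1 added to each value. On recovered reads, without it, the medians were 1.17 over 78 subunit genes and 1.19 over 16479 genes. In the 77 genes, both high-MYC libraries lay above both low-MYC libraries, as they did in 99.0% of all genes tested.

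**Figure D2:**
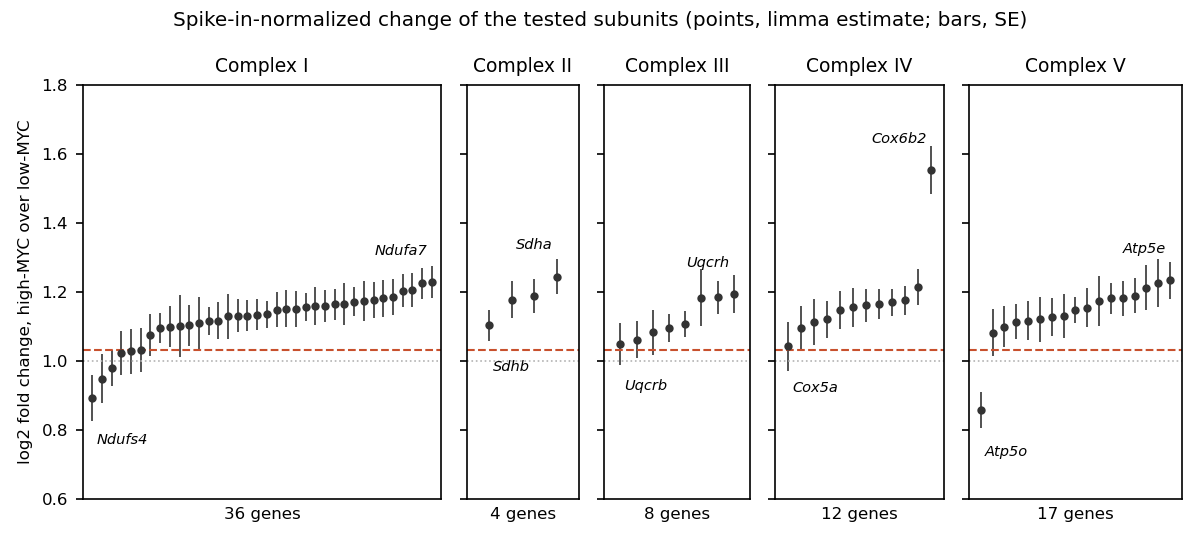
Log2 fold change of spike-in-normalized FPK, high-MYC over low-MYC, of the 77 tested genes by complex, sorted, with the SE as bars; the dashed line is the median of all genes tested (1.03) and the dotted line a 2-fold change. All points but those of Ndufs4, Ndufa12, Ndufa9 and Atp5o lie above the dotted line, and Cox6b2 stands apart at 1.55. On recovered reads, not shown here, the median was 1.17 for the subunit genes and 1.19 for all genes.

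Complex I takes electrons from NADH. Its 36 genes were all called higher, as were 97.1% of all genes tested. Their median on the log2 scale was 1.13, within a range of 0.89 to 1.23. The 7 conserved core subunits, among them those that carry the flavin and the iron-sulfur clusters, had a median of 1.15, and the 29 supernumerary subunits a median of 1.13. Ndufa7, a supernumerary subunit, was at 14.0 and 14.4 per kilobase of exon in low-MYC and at 34.9 and 33.5 in high-MYC libraries. Its fold change was the largest of the complex, 1.23 ± 0.046 on the log2 scale (adjusted p = 1.04e-05, limma). Ndufa13, also known as GRIM-19, rose by 1.22 ± 0.044, and its span is covered on the same strand by Yjefn3, which was given 3 to 13 reads, against 5854 to 6863 of Ndufa13. Ndufs4, a subunit whose loss causes Leigh syndrome, went from 8.63 and 9.09 to 18.6 and 20.6. Its fitted change of 0.89 ± 0.066 was the smallest of the complex, and that of Ndufa12, another supernumerary subunit, was 0.95 ± 0.071.

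Complex II oxidizes succinate and is also an enzyme of the citric acid cycle. All 4 genes rose at least 2-fold (55.1% of all genes tested did), with a median log2 fold change of 1.18. On recovered reads all 4 did so again, against 84.3% of all genes. Sdha, the flavoprotein that binds succinate, had levels of 18.8 and 19.3 per kilobase of exon in low-MYC and 44.5 and 47.5 in high-MYC libraries, a log2 fold change of 1.24 ± 0.050 (adjusted p = 1.04e-05, limma). Sdhb, the iron-sulfur subunit, stood at 13.2, 13.7, 29.4 and 30.0 and rose by 1.10 ± 0.045. The membrane anchors Sdhc and Sdhd rose by 1.19 ± 0.050 and 1.18 ± 0.054. Levels of Sdhc were 11.7, 12.3, 27.6 and 28.8. The groups did not overlap for any of the 4 genes, as in 99.0% of all genes tested. Whether Sdha and Sdhb, the ends of the range, differed from each other was not tested.

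Complex III, the cytochrome bc1 complex, passes electrons from ubiquinol to cytochrome c. Its 8 genes were all called at least 2-fold higher, as were 55.1% of all genes tested. On recovered reads all 8 were called so again, against 84.3% of all genes. The median of the 8 genes, 1.10, was the lowest of the 5 complexes here and on recovered reads (1.11). Relative to the median gene (the second comparison below) it was -0.07. With a pseudocount of 1 complex I was lowest instead (0.90). Uqcrb, known as the ubiquinone-binding protein, was at 37.3 and 40.4 per kilobase of exon in low-MYC and at 77.9 and 83.9 in high-MYC libraries, a log2 fold change of 1.05 ± 0.062 (adjusted p = 2.07e-05, limma). The core protein Uqcrc2 was at 22.1, 23.7, 47.8 and 49.7 and rose by 1.06 ± 0.053. The small subunits Uqcr11 (1.18 ± 0.048), Uqcr10 (1.18 ± 0.082) and Uqcrh (1.19 ± 0.055) stood at the upper end. Uqcr10 was at 33.1, 37.9, 77.3 and 84.6, with a wide gap between replicates.

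Complex IV reduces oxygen, and its nuclear subunits surround a core made by the mitochondrial genome. The 12 tested genes were all called at least 2-fold higher (55.1% of all genes tested were), with a median log2 fold change of 1.16. On recovered reads 13 of 13 were, against 84.3% of all genes. Cox5a and Cox5b, the subunits that bind on the matrix side, were the lowest at 1.04 ± 0.072 and 1.09 ± 0.063. Cox5a was at 18.9 and 21.0 in low-MYC and at 39.8 and 43.5 in high-MYC libraries. Cox6c rose by 1.21 ± 0.052, from 12.4 and 13.3 to 29.6 and 30.9. Cox7c, at 1.16 ± 0.049, had the highest deposited value of the complex, 17.4, 18.3, 39.1 and 40.9 normalized FPK, on a gene of 2.09 kb. Cox6b2 rose most, by 1.55 ± 0.070 (adjusted p = 1.15e-05, limma), from 1.19 and 1.06 to 3.65 and 3.39.

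Complex V makes ATP in its F1 head, driven by a ring in the membrane. Its 17 genes were all called higher and 16 of them at least 2-fold (97.1% and 55.1% of all genes tested). On recovered reads all 17 were at least 2-fold higher, against 84.3% of all genes. The median log2 fold change of the 17 was 1.15 in the main fit. The 5 genes of the F1 head had a median of 1.18 and the 12 others one of 1.12. Atp5e, the smallest F1 subunit, was at 12.1 and 13.2 in low-MYC and at 30.2 and 29.8 in high-MYC libraries, a log2 fold change of 1.23 ± 0.055 (adjusted p = 1.12e-05, limma). Atp5b rose by 1.15 ± 0.056. Atp5md, a small membrane subunit also named DAPIT, rose by 1.08 ± 0.069. Atp5o, the stalk protein OSCP, was at 26.5, 25.8, 55.8 and 56.7, and its fitted change of 0.86 ± 0.052 was the smallest of all 77 genes. Its row joins annotation records over 247 kb of chromosome 16 that also hold Cryzl1 and Donson on the same strand.

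Among the 4 fitted changes below 2-fold, those of the longest genes, Atp5o and Ndufs4, depended most on the added constant. Adding 0.1 to a value per kilobase of span weighs more on long genes, whose values are small. For Atp5o (247 kb) the log2 fold change was 1.10 in a fit on the recovered reads, where no such constant is added, and for Ndufs4 (100 kb) it was 1.15. Ndufa12 (22.7 kb) and Ndufa9 (27.4 kb) were at 1.03 and 1.05 in that fit, still the lowest of the 78 genes there. Over the 11 genes longer than 20 kb the median was 1.03 with the constant and 1.11 on reads, while over the 66 shorter ones it was 1.15 and 1.17. On reads, 78 of 78 genes were at least 2-fold higher, against a background of 84.3% of 16479 genes. Among genes with a mean of at least 1000 reads these were 76 of 76 subunit genes and 8143 of 8878 genes.

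**Figure D3:**
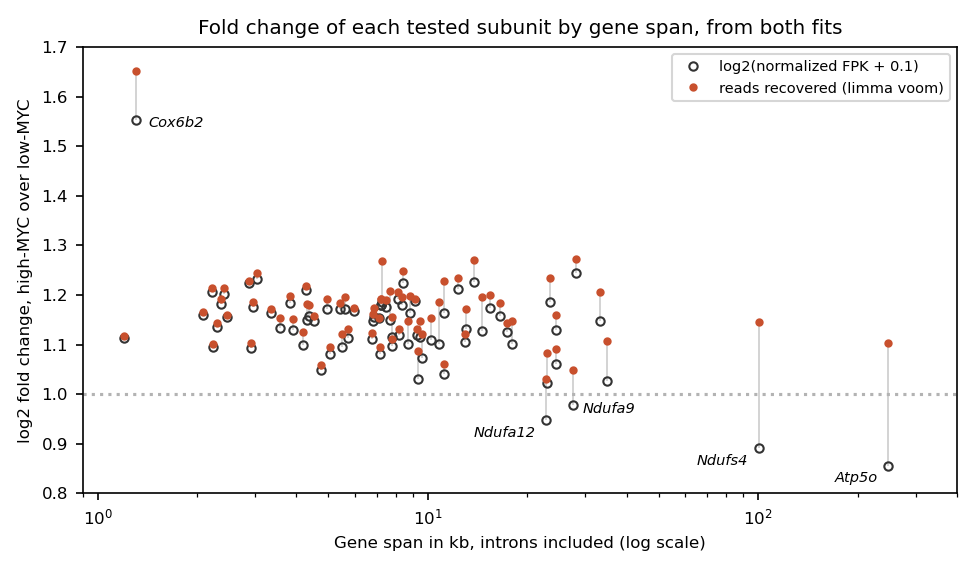
Log2 fold change, high-MYC over low-MYC, of the 77 tested genes against gene span in kb (log scale), from log2(normalized FPK + 0.1) (open circles) and from recovered reads (filled points), joined by grey lines. The gap between both estimates is widest for Ndufs4 (0.89 and 1.15) and Atp5o (0.86 and 1.10), which have the longest spans.

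The second comparison asked which genes rose more or less than the median gene, after the library medians had been made equal. None of the 77 was called higher and none lower at an adjusted p under 0.01 (limma), against 1.76% of genes tested called higher and 0.531% lower. At an unadjusted p under 0.05, 3 were higher (Cox6b2, Sdha and Ndufb4) and 3 lower (Ndufa12, Ndufa9 and Uqcrb), that is fewer than the 17.3% and 15.8% of all genes tested would give; these 6 were named after their values were seen. On recovered reads, 1 gene was called higher, Cox6b2, and none lower, where 10.7% of all genes were called higher and 6.89% lower. The median relative change of the 77 was -0.01, and 34 had a relative change above 0 and 43 one below 0. Medians by complex were -0.0023 for I, 0.03 for II, -0.07 for III, -0.02 for IV and -0.02 for V.

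Scaled to equal library medians, Sdha was at 4.57 and 4.58 in low-MYC and at 4.87 and 4.89 in high-MYC libraries, a relative log2 difference of 0.09 ± 0.025 (adjusted p = 0.0917, limma). Ndufa12 was at 1.29 and 1.37 against 1.18 and 1.23, a relative difference of -0.14 ± 0.043 (adjusted p = 0.117). Ndufa9, a complex I subunit of the membrane junction, was at 1.60 and 1.63 against 1.49 and 1.47, with a difference of -0.12 ± 0.028 (adjusted p = 0.0662). For these 3 genes the groups did not overlap, and none passed the adjusted threshold. Over the 77 genes, 9 lay wholly above and 21 wholly below between groups on this scale, 11.7% and 27.3%, where all genes tested gave 30.7% and 32.6%.

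The spread of the changes was compared at like depth. Among genes with a mean of at least 1000 reads, and without a pseudocount, the log2 ratio of group means had quartiles of 1.13 and 1.20 over 76 subunit genes and of 1.09 and 1.26 over 8802 other genes, with medians of 1.16 and 1.17. The SD was 0.0525 and 0.210. Cox6b2, with fewer reads, was not among the 76. A narrow spread was not particular to them: 88 cytosolic ribosomal protein genes had quartiles of 1.12 and 1.17 with an SD of 0.0789, and 76 mitochondrial ones 1.06 and 1.19 with an SD of 0.0926. The 76 genes ran from 1.03 to 1.27, while the central 90% of other genes ran from 0.96 to 1.47. Subunit genes were also read somewhat more deeply, with a median of 6194 reads against 4203, and the part of depth in this spread was not tested.

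**Figure D4:**
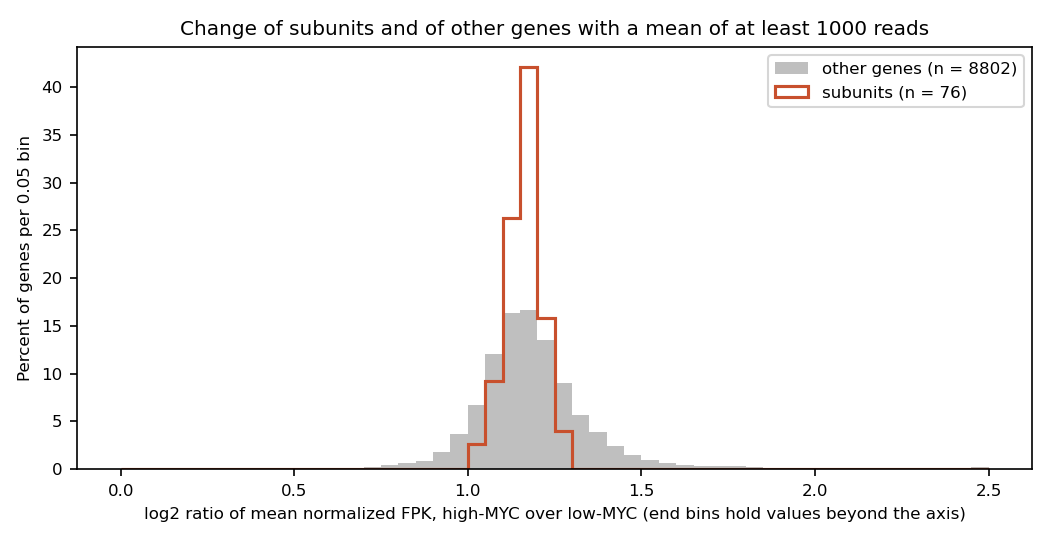
Distribution of the log2 ratio of mean normalized FPK, high-MYC over low-MYC, as percent of genes per bin of 0.05, for 76 subunit genes (red outline) and 8802 other genes (grey) with a mean of at least 1000 reads. The medians are 1.16 and 1.17, and the 76 subunit genes lie between 1.03 and 1.27.

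Several subunits have paired isoforms from different genes. Of the reads of Cox6b1 and Cox6b2, Cox6b2 took 1.92% (exact 95% interval 1.71% to 2.15%) and 1.65% (1.46% to 1.86%) in the low-MYC libraries. In the high-MYC libraries it took 2.72% (2.47% to 2.99%) and 2.36% (2.12% to 2.62%). Both high-MYC shares lay above both low-MYC shares, while the intervals of high-MYC replicate 2 and low-MYC replicate 1 touched. Relative to the median gene, Cox6b2 had a log2 difference of 0.44 ± 0.094 (unadjusted p = 0.00878, adjusted p = 0.0587, limma), and 0.46 with an adjusted p of 0.00412 on reads. Cox6b1 had -0.05 ± 0.027. Intervals cover counting error only.

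The muscle and lung isoforms were near the limit of detection. Cox7a1 had 17, 17, 19 and 15 reads, against 7903 to 9177 of Cox7a2 and 10501 to 11490 of Cox7a2l. Cox6a2 had 7, 3, 4 and 2 reads, against 7973 to 8806 of Cox6a1. Cox4i2 had 7, 5, 7 and 7 reads, against 18356 to 20644 of Cox4i1. Cox7a1 passed the lower limit of the fit on reads and was called higher per cell there, by 1.25 ± 0.35 (adjusted p = 0.00256, limma voom), with a relative change of 0.06 ± 0.35. Cox6a2 and Cox4i2 had a mean under 10 reads and entered neither fit. Of 9 muscle markers, 3 were in the table. Acta1, the skeletal muscle actin and the 1 marker that passed the filter, had 5369 and 5566 reads in low-MYC against 3304 and 2950 in high-MYC libraries. Its change was 0.44 ± 0.043 per cell and -0.73 ± 0.037 relative to the median gene, both called. Tnnt2 had 193 and 208 reads in low-MYC against 91 and 96 in high-MYC libraries. On reads it was called lower relative to the median gene (-1.03, adjusted p = 8.36e-05, limma voom), as were 6.89% of all genes. Tnnt3 had at most 10 reads. The whole span of Cox4i1 is shared on its strand with Gm20388, which was given 12881 to 16129 reads, so the level of Cox4i1 depends on how reads were split. Cox7b, at 33.1, 35.0, 70.3 and 78.2 per kilobase of exon, had no isoform in the table.

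The c ring of ATP synthase is made of copies of 1 protein, which 3 genes encode with different leader peptides. Atp5g3 gave most of the reads, 53.2% and 54.9% of the family in low-MYC and 54.4% and 56.2% in high-MYC libraries. Atp5g1 gave 28.5%, 26.5%, 27.3% and 26.4%, and Atp5g2 gave 18.3%, 18.6%, 18.3% and 17.4%. The groups overlapped for Atp5g3 and Atp5g1, and for Atp5g2 they did not, although the nearest libraries of both groups stood at 18.3%. Their log2 fold changes per cell were 1.22 ± 0.070, 1.15 ± 0.039 and 1.12 ± 0.056. Reads could be shared between near-identical family members and their pseudogenes and were split by the authors' quantification.

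**Figure D5:**
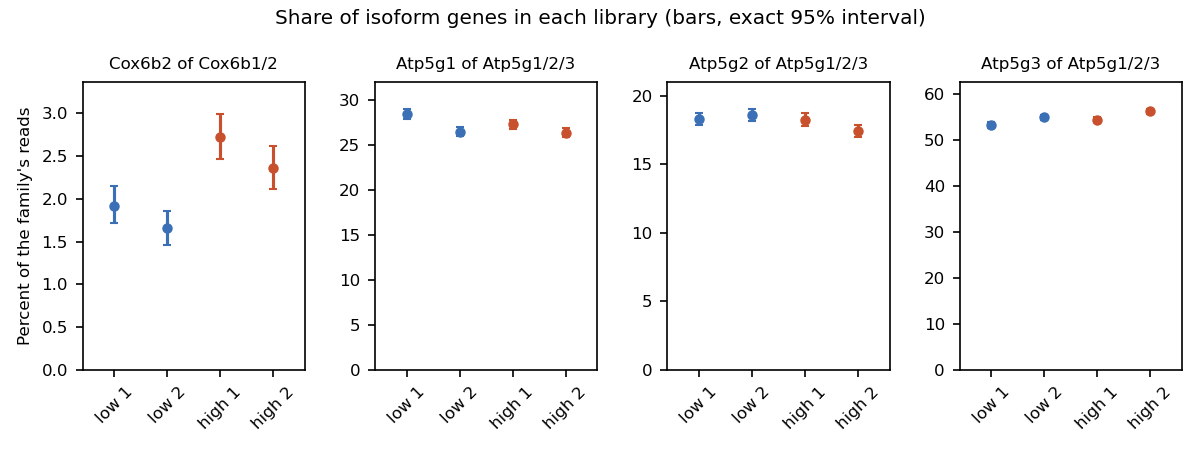
Percent of the family's reads taken by Cox6b2 and by each c-ring gene in the low-MYC (blue) and high-MYC (red) libraries, with exact 95% intervals. Cox6b2 lies at 1.65% and 1.92% in low-MYC and at 2.36% and 2.72% in high-MYC libraries, while the c-ring shares differ little between groups.

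Genes that work with these subunits were described by the same fit. The 13 protein-coding genes of the mitochondrial genome have products that join complexes I, III, IV and V. All 13 were called higher and 11 at least 2-fold (97.1% and 55.1% of all genes tested). On reads 11 were at least 2-fold higher as well, against 84.3% of all genes. The median of the 13 was 1.08 on the log2 scale, from 0.90 for mt-Atp8 to 1.19 for mt-Nd5. Relative to the median gene their median was -0.10, and none was called, while on reads 2 of 13 were called lower, against 6.89% of all genes. Replicates differed more than for nuclear genes, for example mt-Co3 with 435 and 514 normalized FPK in low-MYC and 857 and 1159 in high-MYC libraries. Cyc1, the heme subunit of complex III, rose by 1.14 ± 0.039, Cycs, cytochrome c itself, by 1.03 ± 0.053, and Ndufab1, the acyl carrier protein of complex I, by 1.06 ± 0.084. On reads Cycs was called lower relative to the median gene (-0.15, adjusted p = 0.00607, limma voom), as were 6.89% of all genes. Cyc1 (-0.04) and Ndufab1 (-0.07) were not called there.

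Of 46 assembly factors, 39 were tested, all were called higher and 25 rose at least 2-fold (55.1% of all genes tested did). Their median was 1.05 and their relative median -0.0039. On reads 42 of 45 rose at least 2-fold, against 84.3% of all genes. None of the 39 was called relative to the median gene, and on reads 2 of 45 were called lower, against 6.89% of all genes. These were Cox10, which acts in making heme a for complex IV, and Ndufaf4, an early complex I factor. Cox10 had the smallest fitted change, 0.50 ± 0.059, with 2127, 2124, 1775 and 1684 reads, and 0.95 on reads, without the added constant. Cox14, which handles new COX1, had the largest fitted change, 1.29 ± 0.044. On reads Cox14 was at 1.34, and Sdhaf4 had the largest change there, 1.44. Of 12 regulators of mitochondrial biogenesis 9 were tested, all called higher, from Nrf1 (0.66 ± 0.059, and 1.05 on reads) to Gabpa (1.16 ± 0.063), with a median of 1.09 and none called relative to the median gene. The coactivator Ppargc1a had 33, 23, 25 and 28 reads. Mitochondrial ribosomal proteins (77 tested of 78) had a median of 1.07 and cytosolic ribosomal proteins (90 tested of 94) one of 1.14. All of these tested were called higher per cell and none relative to the median gene, while on reads 1 of 78 and 2 of 94 were called relatively higher (10.7% of all genes) and 8 and 3 lower (6.89%).

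Fold changes were also set against the promoter patterns. The median was 1.13 on the log2 scale over the 17 genes with the NRF1 pattern and 1.15 over the 48 tested genes without it. For the ETS pattern the medians were 1.15 with it (17 genes) and 1.13 without it (48 genes). For the YY1 pattern they were 1.14 with it (10 genes) and 1.13 without it (55 genes). The 6 genes with an E-box (Atp5f1, Atp5g1, Atp5g3, Atp5l, Ndufa7 and Ndufv1) had a median of 1.16, against 1.13 for the 59 without. Relative to the median gene these 2 medians were -0.0052 and -0.018. Of the genes whose windows are printed above, Sdhd rose by 1.18 ± 0.054, Uqcr11 by 1.18 ± 0.048 and Atp5g3 by 1.22 ± 0.070. These medians are descriptions, since genes of the same libraries are not replicates.

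The TACh-seq table, which lists 4881417 reads at nuclease-accessible sites in MEFs, held reads within 500 bp of the start for 70 of the 80 genes (87.5%), against 84.3% of protein-coding genes tested and 32.7% of those not tested. Its label names WT cells, but no column names a library, so WT and KOKD cells could not be compared. The median was 112.5 reads per start for the 80 genes and 110 for genes tested. Atp5g1 had the most, 516 reads, and Cox6b2 had 69. Of the 10 starts with 0 reads, 8 belong to tested genes, Cox7c and Ndufs4 among them, and the others to Cox4i2 and Cox6a2. The peak table used here lists 166 FUBP1 peaks, all on chromosome 15, so other chromosomes are not analysed here. Chromosome 15 holds 4 of the 80 genes: Atp5g2, Cox6c, Ndufa6 and Ndufb9. None overlapped a peak, against 55 of 408 tested protein-coding genes of that chromosome (13.5%). The nearest peak lay 156064 bp from Atp5g2 (chr15:102662864-102672352, minus strand), and the others lay 481556 to 708940 bp away. The 4 genes rose by 1.12 ± 0.056, 1.21 ± 0.052, 1.10 ± 0.060 and 1.11 ± 0.040 on the log2 scale.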

How the data were processed

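The deposited signal values are FPK that the authors obtained by trimming low-quality 3′ bases, aligning with TopHat to mm10 transcripts, quantifying with the expectation-maximization method of Partek, and dividing by the geometric mean of ERCC transcripts. Versions are not given in the sources used here. The file's values show division by gene span. They were compared as log2(normalized FPK + 0.1) with limma 3.58.1 (lmFit, eBayes with trend; R 4.3.3). Genes had to reach a mean of 0.1 across the 4 libraries; Benjamini-Hochberg adjustment ran over all genes tested, with calls at 0.01. The relative comparison first equalised library medians. Fold changes are on the log2(value + 0.1) scale and understate changes of low values. Reads were recovered from the step per library and fitted with limma voom, with a mean of at least 10 reads, added after seeing the data, as were levels per kilobase of exon. The reads of 67.1% to 67.9% of genes below 1000 reads were whole within 0.02, and genes with more reads were not part of this check. A check on simulated reads covered only the relative comparison and not the values per cell.

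Genes named were, per complex, the 2 largest and 2 smallest changes and the highest level, all Sdh genes, isoform families, genes on chromosome 15, genes called or failing a call, and list members at the ends of their lists. The members and lists were chosen with earlier results of these data known. Cox7b2, Cox8b, Cox8c, Ndufa4l2, Atp5s and Atp5sl are not analysed here. For TACh-seq the authors aligned reads with Bowtie2, and the deposited score per read was not used. FUBP1 peaks were called by the authors with SICER, and deposited positions were used with an overlap of at least 1 bp. Intervals are exact Clopper-Pearson intervals at 95%. The rest used Python 3.11.15 (scipy 1.17.1, matplotlib 3.10.9, pandas 2.3.3, numpy 2.4.6).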

Additional observations from a re-analysis of the deposited data

How the results depend on the processing

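All 77 genes stayed called higher per cell, and none lower, with pseudocounts of 1 and 0.01, without the trend, with the replicate block, at a threshold of 0.05 and without any 1 library; 79 of 80 were higher without a minimum mean (not Cox6a2), all 75 tested with a minimum mean of 1, and all 78 on recovered reads. The number at least 2-fold higher fell to 37 with a pseudocount of 1, which shrinks low values by construction, and was 77 with 0.01. The share of all genes called so moved as well, from 55.1% in the main fit to 84.3% on recovered reads. For the other settings the share of all genes is not given, so these counts do not set the subunit genes apart from other genes. The replicate block left 77 higher and 73 at least 2-fold higher. Replicate numbers did not pair the libraries (the correlation of replicate differences between groups was 0.081 over 11870 genes).

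Called higher were 0 genes once libraries had the same median and 0 with the same total, and 0 were then at least 2-fold higher; by construction, this rescaling takes out the shift that all genes share. With equal medians the sign turned, without a call, for 43 of the 77 genes, Ndufa9 (-0.1218) among them. Values below 0 under each rescaling follow for the genes set by the naming rule. With equal medians the log2 difference was -0.0238 for Atp5b, -0.0164 for Atp5g1, -0.031 for Atp5g2, -0.0831 for Atp5md, -0.0583 for Atp5o, -0.0045 for Cox4i1, -0.1156 for Cox5a, -0.0765 for Cox5b, -0.007 for Cox6a1, -0.0473 for Cox6b1, -0.0216 for Cox7a2, -0.0537 for Cox7b, -0.0137 for Cox7c, -0.0182 for Cox8a, -0.1366 for Ndufa12, -0.0511 for Ndufa6, -0.0465 for Ndufb9, -0.0256 for Ndufs4, -0.0298 for Sdhb, -0.1185 for Uqcrb and -0.085 for Uqcrc2. With equal totals it was -0.0087 for Atp5b, -0.0014 for Atp5g1, -0.0162 for Atp5g2, -0.0681 for Atp5md, -0.0465 for Atp5o, -0.1007 for Cox5a, -0.0614 for Cox5b, -0.0322 for Cox6b1, -0.0065 for Cox7a2, -0.0386 for Cox7b, -0.003 for Cox8a, -0.1225 for Ndufa12, -0.0363 for Ndufa6, -0.0315 for Ndufb9, -0.0137 for Ndufs4, -0.0152 for Sdhb, -0.1034 for Uqcrb and -0.0702 for Uqcrc2.

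Relative to the median gene, 1 gene was called higher with a minimum mean of 1 and 1 on reads, Cox6b2 in both, at adjusted p = 0.00736 and 0.00412 (limma); over its other alternatives the adjusted p ran from 0.0202 to 0.187, and the cause was not tested. With equal totals none was called. With a pseudocount of 1 the medians of complexes I to V were 0.9017, 0.9572, 1.0013, 1.041 and 1.0332; for complex III it was 1.1112 with 0.01, 1.1125 on reads and 1.0813 to 1.1286 without 1 library. Relative medians without a minimum mean were 0.0008, -0.0464 and -0.0504 for complexes II, IV and V, and that of II was 0.0208 with a minimum mean of 1 and 0.0099 to 0.0559 without 1 library. Without 1 library the other medians ran from 1.1045 to 1.1572 (I), 1.143 to 1.2199 (II), 1.1166 to 1.1898 (IV) and 1.103 to 1.1898 (V). Placing Ndufa4 in complex IV changed no median beyond the spread of replicates, and leaving out Atp5s, Atp5sl and Ndufa4l2 could change none, as they are not members here. Before the start, 1 promoter held the YY1 pattern. Windows of 1000 bp for TACh-seq and an overlap of 50% for FUBP1 peaks left the counts at 70 and 0.

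With 2 technical replicates a group, errors describe libraries and not cultures, and the spike-in score of each library enters every value per cell. Cox7a1, Cox6a2 and Cox4i2 had 2 to 19 reads per library. Calls of Cox7a1 and Cox4i2 therefore rest on few reads, and Cox6a2 had none. Reads split among overlapping genes or paralogs remain uncertain.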
